A study of Caenorhabditis elegans with 2 samples.

Results

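The genes described here are 9 C. elegans genes of the DREAM complex and its partner lin-36: lin-35, efl-1, dpl-1, lin-54, lin-53, lin-9, lin-37, lin-52 and lin-36. They are 9 of 19973 protein-coding genes on the 6 nuclear chromosomes. Binding was mapped by chromatin immunoprecipitation with sequencing (ChIP-seq) in whole L2 larvae of strain OP228, genotype unc-119(ed3) III; wgIs228. The integrated transgene wgIs228 carries nhr-237, a gene of the nuclear hormone receptor family, fused to eGFP, so the tagged protein came from a transgene. Both libraries, biological replicates 1 and 2, were of this 1 group, from larvae labelled as mixed sex, with a labelled size range of 150 to 350 bp. There was no second condition, and an untagged strain was not analysed here. Whole larvae mix all cell types, so fewer cells of a type with a bound promoter and less binding per cell cannot be told apart.

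The genes were chosen by name, with the region lists of these libraries already known, so their counts, signals and positions are a description and no p-value is given for them. For each gene, regions with a summit within 1000 bp of the 5′ end of its Ensembl model were taken from the pooled list, the list thresholded on the irreproducible discovery rate (IDR), and the relaxed list of each replicate.

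DREAM is a conserved complex that keeps cell cycle and developmental genes repressed. It joins a retinoblastoma-family protein and an E2F-DP pair, which reads DNA, to a core of MuvB proteins, one of which also binds DNA. In the worm its subunits were found as class B synthetic multivulva (synMuv B) genes: losing one of them together with a class A gene gives extra vulval tissue. In somatic cells of the worm the complex is also known for holding germline genes off.

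Regions were ranked by the authors' signal (column 7 of the lists), on a scale that belongs to each list. The lists were called with a control alignment as input, but the sources used here do not name the unit of the signal. The pooled list held 6542 regions, the IDR list 350, and each replicate list 30000. The pooled and replicate lists were called at a relaxed threshold, so a region deep in them can be background. In the pooled list the authors' −log10 q-value (column 9) was 0.0641 at lin-35 and 1.01 at lin-52, against 2.81 at lin-54. Read counts were not analysed here and the depth of each library is unknown, so values are given with their rank, and with the rank in each replicate in place of an error.

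An IDR peak lay near the 5′ end of 5 of the 9 genes: lin-54, efl-1, lin-9, lin-53 and lin-36. The same held for 1.72% of all protein-coding genes. A pooled region lay near 7 of 9, adding lin-52 and lin-35, against 15.8% of all protein-coding genes. Among the 350 highest regions of replicate 1, 4 of the 9 genes had one nearby (1.65% of all genes), and among those of replicate 2, 3 of the 9 (1.54%), with lin-53 and lin-36 missing there. In both replicate lists 8 of the 9 genes had a region, but so did 28.8% of all genes, since those lists run deep. All these shares describe genes chosen with the region lists known and say nothing of how often such genes are bound.

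The summits of lin-54, efl-1, lin-9, lin-36 and lin-52 lay in intergenic DNA, as did those of lin-53 and lin-35. For lin-54, efl-1, lin-9, lin-36 and lin-52 the sequence around the pooled summit is shown because it lies in the regions described below. The windows of lin-53 and lin-35 are not printed. Each printed sequence is read from the RefSeq WBcel235 assembly (ce11 coordinates) on the strand of the named gene, 5′ to 3′. It lies within 100 bp of the summit and is cut where an exon of a protein-coding gene begins. Capitals mark matches to the 10 motifs searched, on either strand. Those found here are TTTGAA, the element that LIN-54 proteins bind, 2 parts of E2F sites (CGCGC and the longer TTCCCGC), the repeat GAGAGAG and the nuclear receptor hexamer AGGTCA.
lin-54, chrIV:13240652-13240788, + strand: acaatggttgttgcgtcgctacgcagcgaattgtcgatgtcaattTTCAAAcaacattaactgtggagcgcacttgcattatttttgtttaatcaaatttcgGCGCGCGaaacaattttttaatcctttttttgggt
efl-1, chrV:16965747-16965947, − strand: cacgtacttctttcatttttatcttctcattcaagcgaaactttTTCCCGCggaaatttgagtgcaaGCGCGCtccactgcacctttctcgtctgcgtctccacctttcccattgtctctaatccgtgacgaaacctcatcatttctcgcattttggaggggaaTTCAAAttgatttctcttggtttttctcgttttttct
lin-9, chrIII:8904163-8904363, − strand: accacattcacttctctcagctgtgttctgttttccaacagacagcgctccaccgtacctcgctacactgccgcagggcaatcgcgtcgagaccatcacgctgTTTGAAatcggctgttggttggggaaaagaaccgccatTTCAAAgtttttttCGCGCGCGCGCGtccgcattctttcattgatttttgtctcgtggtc
lin-36, chrIII:8021089-8021289, − strand: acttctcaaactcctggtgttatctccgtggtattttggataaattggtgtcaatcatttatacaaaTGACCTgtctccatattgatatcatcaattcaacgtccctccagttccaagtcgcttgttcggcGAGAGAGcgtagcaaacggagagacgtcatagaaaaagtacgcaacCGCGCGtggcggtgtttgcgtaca
lin-52, chrIII:9824769-9824876, − strand: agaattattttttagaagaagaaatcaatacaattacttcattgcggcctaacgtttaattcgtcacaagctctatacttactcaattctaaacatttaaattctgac

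The DNA-binding subunit of the MuvB core, LIN-54, had the strongest region of the set upstream of its gene. The lin-54 region (IV 13240500 to 13240875) had a pooled signal of 116, rank 33 of 6542. Its signal was 77.3 in replicate 1 (rank 36) and 36.2 in replicate 2 (rank 47), and both summits lay within 2 bp of each other. It was thus near the head of every list. The summit stood 356 bp upstream of lin-54 but only 37 bp upstream of rpl-12, a gene for a protein of the large ribosomal subunit that starts on the opposite strand of the same intergenic stretch. Replicate 2 alone held 2 weaker regions in reach, at −997 bp (signal 12.8, rank 1809) and −153 bp (signal 7.96, rank 10821).

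The E2F factor gene efl-1 came second. Its region (V 16965659 to 16966034) had a pooled signal of 69.3 (rank 118), with 47.6 in replicate 1 (rank 108) and 24.9 in replicate 2 (rank 131). The replicate summits lay 9 bp apart, and efl-1 was high in both libraries. The pooled summit was 172 bp upstream of efl-1, and the only other gene start in reach was that of fbxa-90, an F-box gene on the opposite strand, 967 bp away. For efl-1 the nearest start was therefore its own.

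The gene for the DP partner of EFL-1, dpl-1, did not share this pattern. It had no pooled or IDR region and none in replicate 2. In replicate 1 a single region at −458 bp had a signal of 10.2 (rank 17053), just below that list's median of 10.6. That summit lay in an intron of T23G7.2, a protein-coding gene on the opposite strand that runs across dpl-1 (II 9167933 to 9172949). The closest pooled summit was 8623 bp downstream of the dpl-1 start, with a signal of 20.7.

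The gene for the retinoblastoma-family protein, lin-35, had only a weak region. The pooled signal of 22.0 at I 5807237 to 5807612 (rank 3230) was next to the pooled list's median of 21.9. In replicate 1 its signal was 12.9 (rank 7974) and in replicate 2 it was 8.78 (rank 7947), with summits 123 bp apart. The ranks matched, but in both libraries they lay far below the regions of lin-54 and efl-1. The pooled summit was 284 bp upstream of lin-35 and 134 bp upstream of vps-51, which encodes a subunit of a vesicle tethering complex and starts on the opposite strand.

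The other genes of the MuvB core ran from rank 146 to no pooled region at all. The lin-9 region (III 8904075 to 8904450) had a pooled signal of 63.3 (rank 146), with 44.8 in replicate 1 (rank 128) and 19.1 in replicate 2 (rank 300). Its replicate summits were 20 bp apart. The pooled summit was 132 bp upstream of lin-9, and no other gene of any class started within 1000 bp of it. Of the 5 genes with an IDR peak, lin-9 was the one whose promoter was not shared at this distance.

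The gene for the histone-binding protein LIN-53, a relative of human RBBP4 that also serves in other chromatin complexes, differed most between the libraries. Its region (I 9619824 to 9620199) had a pooled signal of 58.3 (rank 177) and a signal of 47.7 in replicate 1 (rank 107), but 10.3 in replicate 2 (rank 4508). Replicate 1 thus placed lin-53 one rank above efl-1, whereas in replicate 2 it fell behind lin-36 and lin-52. The ratio of replicate 1 to replicate 2 signal was 4.62. Over the 342 IDR peaks with a region in both lists within 150 bp of the pooled summit, the median ratio was 1.93 (quartiles 1.53 and 2.55), and 9 of them had a higher ratio than lin-53. Of the same peaks, 19 ranked beyond 4000 in replicate 2. The IDR peak of lin-53 therefore rests mainly on replicate 1. Its summit was 252 bp upstream of lin-53 and 215 bp upstream of nra-2, which starts on the opposite strand.

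The small MuvB gene lin-52 fell outside the IDR list. The pooled signal of its region (III 9824681 to 9825056) was 34.2 (rank 565), with 21.0 in replicate 1 (rank 969) and 11.7 in replicate 2 (rank 2658), and summits 18 bp apart. The position was thus nearly the same in both libraries although the rank was modest. The pooled summit was 119 bp upstream of lin-52, in the short gap behind ZK632.9, a gene on the same strand whose own start was 563 bp from the summit. Operon annotation was not used, so whether the annotated start of lin-52 has a promoter of its own was not tested.

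The last MuvB gene, lin-37, had no pooled region. Its regions were at the tail of the replicate lists, with a signal of 8.44 in replicate 1 (rank 26269) and 5.04 in replicate 2 (rank 29713), and summits 414 bp apart, the first in an intron and the second in coding sequence of lin-37. The nearest pooled summit, at −1666 bp, had a signal of 20.1 (rank 4826). Both signals were close to the lowest in their lists, 7.89 in replicate 1 and 5.01 in replicate 2.

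The gene lin-36 encodes a THAP-domain protein that is not a core subunit but acts with LIN-35 in the synMuv B pathway. Its region (III 8021001 to 8021376) was just inside the IDR threshold, with a pooled signal of 43.9 (rank 327). The last peak inside had a signal of 41.93 and the first region outside 41.91, so the threshold cut through a continuous range. In replicate 1 the signal of lin-36 was 24.7 (rank 540) and in replicate 2 it was 17.5 (rank 421), with summits 2 bp apart. Neither library alone placed lin-36 among its 350 highest regions. The summit was 316 bp upstream of lin-36 and 82 bp upstream of F44B9.11, an annotated noncoding RNA gene on the same strand.

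**Figure D1:**
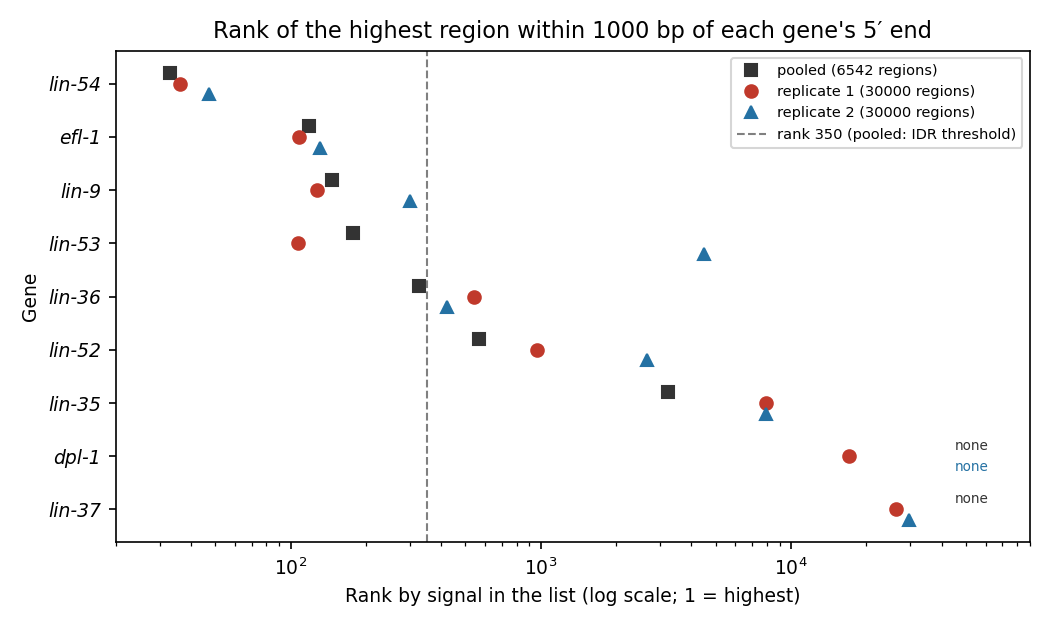
Rank by signal of the highest region within 1000 bp of each gene's 5′ end (x axis, log scale, 1 is the highest) in the pooled list (squares) and in replicate 1 (circles) and replicate 2 (triangles), with a dashed line at rank 350. The lin-54 points lie between 33 and 47, lin-53 spreads from 107 to 4508, and the points of dpl-1 and lin-37 lie at 17053 or beyond where there is a region at all.

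The genes formed a graded series and not a group bound as one. Setting lin-53 aside, the order lin-54, efl-1, lin-9, lin-36, lin-52 and lin-35 was the same in the pooled list and in both replicates. With 1 value per library, the steps within that order have no error of their own. In the pooled list and replicate 1 the closest neighbours were efl-1 and lin-9, with ranks of 118 and 146, and of 108 and 128. In replicate 2 they ranked 131 and 300, and lin-9 was nearer to lin-36, at 421. In each replicate the ranks of efl-1 and lin-9 were nearer to each other than those of lin-9 in the 2 replicates. For lin-36 and lin-52 the ranges did not overlap, with ranks of 540 and 421 against 969 and 2658.

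The position of the summits followed that of other genes in the IDR list. In each gene with an IDR peak the summit was upstream, between 132 and 356 bp from the start. Over all 343 genes near an IDR peak the median offset was −221 bp, with quartiles of −406 and −117. The replicate summits lay within 150 bp of each other in 7 of the 8 genes with a region in both lists, against 32.3% of all 5761 such genes. Within 50 bp the count was 6, all but lin-35 and lin-37. Of the 343 genes near an IDR peak, 93.0% had replicate summits within 150 bp and 62.7% within 50 bp.

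**Figure D2:**
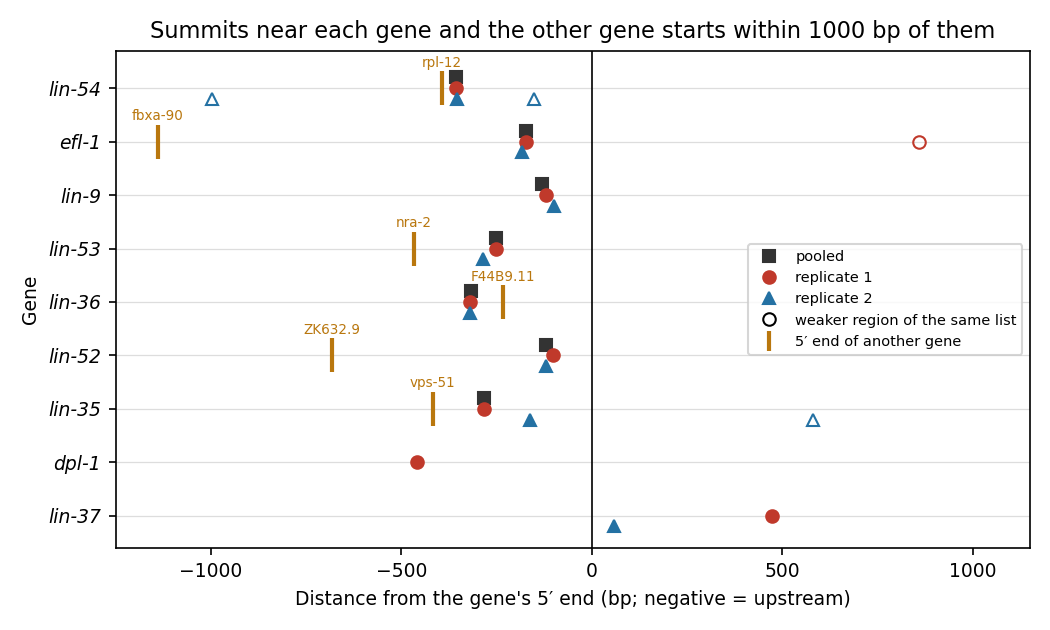
Position of every summit within 1000 bp of each gene's 5′ end (x axis, bp, negative is upstream) by list, with open symbols for weaker regions of the same list and vertical ticks for the 5′ ends of other genes within 1000 bp of the summit. The filled symbols of lin-54, efl-1, lin-9 and lin-36 nearly coincide, while those of lin-35 and lin-37 are 123 and 414 bp apart.

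Several of these regions cannot be assigned to one gene by position. Of the 5 genes with an IDR peak, efl-1 and lin-9 were the closest start of any class to their summit. For the other 3 it was rpl-12, nra-2 and F44B9.11. Counting each peak only for its closest start left 2 of the 5. Sharing was usual in the IDR list: of 343 genes near a peak, 184 (53.6%) were themselves the closest start, and 224 (65.3%) shared the peak with another protein-coding start. ChIP-seq gives the place of the region, and which of the paired genes it bears on was not tested.

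**Figure D3:**
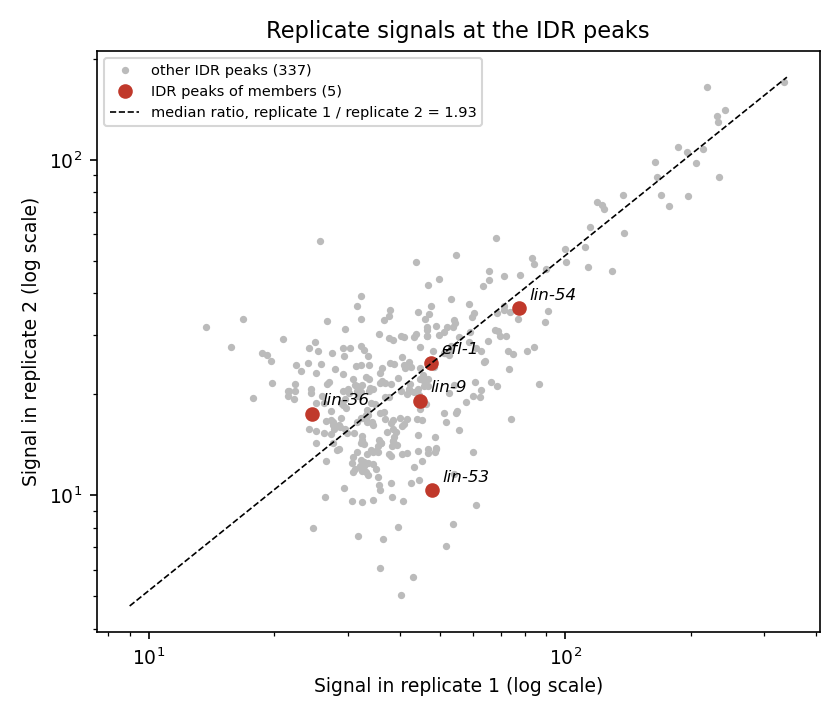
Signal in replicate 1 (x axis) against replicate 2 (y axis), both on log scales, at the 342 IDR peaks with a region in both replicate lists; red points are the 5 genes described here and the dashed line is the median ratio of 1.93. The points of efl-1 and lin-54 lie near the line, and lin-53 lies well below it, with a signal of 47.7 against 10.3.

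The windows within 100 bp of the 7 pooled summits were searched on both strands for 10 motifs. CGCGC, a core of E2F sites whose matches can overlap those of its reverse complement GCGCG, was present in 5 of 7: efl-1, lin-54, lin-53, lin-9 and lin-36, which are the genes with an IDR peak. It was also present in 49.8% of the 233 IDR peaks near a protein-coding start and in 17.8% of the 2763 pooled regions near one, so the letters were common in the IDR list as a whole. Within 50 bp it remained in efl-1 alone of the 7, against 36.1% of the IDR peaks. In the 300 bases upstream of the 5′ end, 7 of the 9 genes held CGCGC, all but lin-37 and lin-52, against 14.9% of all 19973 promoters of that length. The lin-9 window printed above holds it as an unbroken run of alternating C and G.

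The other motifs were rarer or near the background. TTTGAA, the cell cycle homology element, was in 4 of 7 windows (efl-1, lin-54, lin-53 and lin-9), against 46.4% of IDR peaks and 48.0% of pooled regions. Its variant TTCGAA was in none of the 7 (11.6% of IDR peaks). TTCCCGC was found for efl-1 (4.29% of IDR peaks) and TTGGCGC for lin-54 (7.73%), the latter outside the printed stretch, on the rpl-12 side. The efl-1 and lin-54 windows thus each held 3 of the motifs connected with DREAM. How many of the IDR peaks held as many was not counted. In efl-1 the first bases lay at −228 bp from the gene start for TTCCCGC, at −204 bp for CGCGC and at −108 bp for TTTGAA. The nuclear receptor hexamer AGGTCA was in the lin-36 window alone of the 7 (5.15% of IDR peaks), as was GAGAGAG (14.6%). The KLF/SP type motif CCGCCC was in none of the 7 (11.2% of IDR peaks), nor was the hexamer AGTTCA (6.44%) or the GATA factor motif TGATAA (7.30%). A match shows the letters only, and binding of any DREAM protein was not measured in these libraries.

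Genes of the wider pathway were taken from lists drawn up with earlier results of these data known, and are set beside the 1.72% of all protein-coding genes near an IDR peak and the 15.8% near a pooled region. Replicate ranks given for them are those of the highest region within 1000 bp in each list, which need not be the same region as in the pool. Of 13 other synMuv B genes none had an IDR peak and 5 (38.5%) had a pooled region. The highest was ubc-9, the SUMO-conjugating enzyme (pooled signal 31.7, rank 728), which ranked 544 in replicate 1 and 8091 in replicate 2. Next came tam-1 (28.3, rank 1041), at 723 and 14693, and hpl-2, a heterochromatin protein (25.0, rank 1782), at 4011 and 7772. All 3 stood lower in replicate 2 than in replicate 1. This did not hold for the whole list, since lin-13 ranked 14641 in replicate 1 and 6352 in replicate 2. None of the 4 synMuv A genes (lin-8, lin-15A, lin-38 and lin-56) had a pooled region, and neither did the paralogs efl-2, efl-3 and rba-1, of which rba-1 is related to lin-53 and starts just downstream of it on the same strand. In lists as short as these, a count of 0 near an IDR peak is no departure from the share of all genes. As for lin-52, whether the annotated 5′ end of rba-1 has a promoter of its own was not tested.

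Single genes of other lists had an IDR peak. Of the 4 synMuv C genes, which encode parts of the TIP60 acetyltransferase complex, epc-1 had the very last IDR peak (pooled signal 41.9, rank 350), at rank 497 in replicate 1 and 1071 in replicate 2. The starts of Y111B2A.12 and Y111B2A.34 also lay within 1000 bp of its summit. Another synMuv C gene, mys-1, had a pooled region (24.2, rank 2064), at 11518 and 979, shared with VC5.2 and linc-117. Of 8 suppressors of synMuv B phenotypes, mrg-1, a chromodomain protein, had an IDR peak in a promoter shared with spcs-2 (59.3, rank 170), at 218 and 2435. By rank mrg-1, like lin-53, thus stood higher in replicate 1 than in replicate 2. Its signals of 35.2 and 11.9 were less far apart than the 47.7 and 10.3 of lin-53. Also of this list, mes-2 had a pooled region (31.9, rank 717), at 2165 and 1908. Of 9 genes for NuRD, CAF-1 and acetyltransferase partners of LIN-53, hat-1, a histone acetyltransferase, had an IDR peak (62.2, rank 153), at 190 and 89, and lin-40 a pooled region (32.8, rank 642), at 647 and 1697. Of these 3 genes with an IDR peak, hat-1 was the one within the 350 highest regions of both replicates.

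Lists of the kinds of genes that DREAM is known to control, and of vulval induction, were counted in the same way. Of 50 cell cycle and DNA replication genes, 2 (4.0%) had an IDR peak and 14 (28.0%) a pooled region. The replication clamp gene pcn-1 had a pooled signal of 49.2 (rank 245), at rank 195 in replicate 1 and 499 in replicate 2. The F-box gene lin-23 had 53.7 (rank 204), with a summit at −967 bp, near the 1000 bp limit. Within that limit the highest regions of the replicates ranked 12454 and 751. The replicate 1 rank is that of another, weaker region. Within 150 bp of the pooled summit the signals were 37.2 in replicate 1 and 15.4 in replicate 2. Of 25 germline and meiosis genes none had an IDR peak and 2 (8.0%) had a pooled region. These were pgl-3 (signal 23.4, rank 2420), at 16350 and 10005, and syp-3 (22.0, rank 3202), at 2994 and 5312. Of 14 vulval induction genes none had an IDR peak and 4 (28.6%) had a pooled region, the highest at sem-5 (rank 1829, replicate ranks 1764 and 13183), lin-45 (rank 2344, 1780 and 5779) and let-60 (rank 5230, 4072 and 22466). The lists are short, and no difference between them or from all genes was tested.

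**Figure D4:**
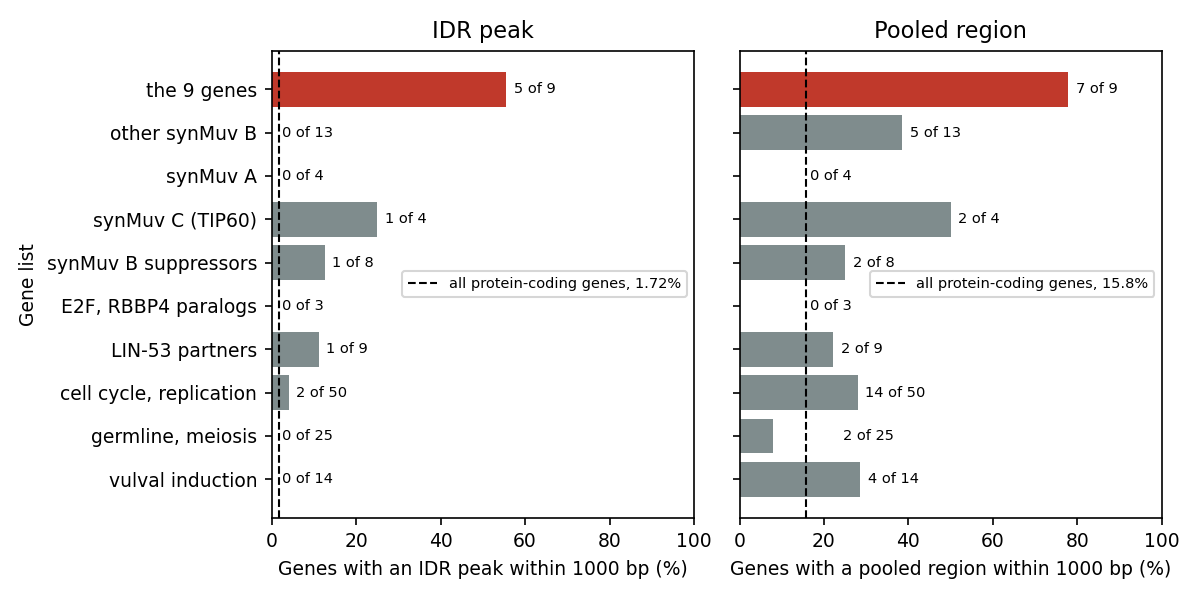
Percent of the genes of each list with an IDR peak (left) or a pooled region (right) within 1000 bp of the 5′ end, with counts beside the bars and the share of all protein-coding genes as a dashed line. The top bar, for the 9 genes chosen with these lists known, stands at 5 of 9 and 7 of 9, and no other list has more than 2 genes near an IDR peak.

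The genes most like lin-54 were Y39B6A.43, nhl-2 and tag-340, by Euclidean distance over log10 rank in the pooled and both replicate lists (0.129 for each, out of 2460 genes with a region in all 3 lists). Y39B6A.43 ranked 43 in the pool, 40 in replicate 1 and 51 in replicate 2. The genes nhl-2 and tag-340 share one peak, which ranked 39, 37 and 60 in these lists.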

How the data were processed

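ChIP-seq region lists in the narrowPeak layout were used in the ce11 build, which is WBcel235. According to the descriptions that accompany the deposited files, the authors called relaxed lists of peaks and background on each library and on both together, with a control alignment as input, and thresholded the pooled list by IDR. The deposited signal (column 7) and the −log10 q-value (column 9) are the authors' own. The sources used here name neither the caller and its settings nor the control's sample. The IDR list was the 350 pooled regions of highest signal, tested on the lists. The ce10 lists were not used.

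Gene models were those of Ensembl release 115, and sequence that of the RefSeq WBcel235 assembly. The first codon of all 9 genes read ATG there. For each gene the region of highest signal within 1000 bp of its 5′ end was kept per list. The members, gene lists and motifs were chosen with earlier results of these data known. Named genes were the 9, genes sharing their summits, and the 3 genes most like the leading member. In each list, those near an IDR peak were named, or otherwise the 3 of highest pooled signal. Beyond this rule, mys-1, mes-2 and lin-40 were named as the other genes of their lists with a pooled region. The synMuv A genes and the paralogs were named without one, lin-13 for its replicate ranks, and genes sharing summits with list genes for their position. No test was made, since there is 1 group of 2 libraries. Assignment was tested on simulated data. Python 3.11.15, NumPy 2.4.6, pandas 2.3.3 and matplotlib 3.10.9 were used.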

Additional observations from a re-analysis of the deposited data

How the results depend on the processing

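Distances of 500 or 2000 bp, any annotated transcript start, and interval overlap in place of the summit left the count of genes near an IDR peak at 5. Counting a region only for its closest gene start changed most: 2 genes near an IDR peak, 3 near a pooled region, 2 near the 350 highest regions of replicate 1 and 4 near regions of both replicates. Of all 343 protein-coding genes near an IDR peak, 184 were the closest start. For the other lists the share of all genes under this rule was not counted. The 175 IDR peaks of highest signal held 3 of the 5, losing lin-53 and lin-36. With the IDR list replaced by the 350 highest regions of a single replicate, the count ranged from 3 without replicate 1 (lin-53 and lin-36 lost) to 4 without replicate 2 (lin-36 lost). In all, 26 of 32 such counts stayed within 1.5 times of the value given. Ranks and motif counts were not part of that tally. Within 50 bp of the summit in place of 100 bp, CGCGC fell from 5 genes to 1 and TTTGAA from 4 to 3. By q-value, efl-1, lin-54, lin-9 and lin-53 tied at rank 323, since 323 regions share the highest value, so signal was used to rank. No paired analysis was possible because there is 1 group and no contrast. Depth is unknown and limits all statements on weak regions.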

Other observations

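Regions inside the gene bodies, more than 1000 bp from the start, were counted without the share over all genes. The pooled list held 1, in efl-1 at 3988 bp (signal 19.1, rank 6150 of 6542). The replicate lists held 3 each in efl-1, the highest at rank 20383 in replicate 1 and 4910 in replicate 2. They held 1 each in lin-9 (replicate 1, rank 28596), lin-35 (replicate 2, rank 6441) and lin-54 (replicate 2, rank 7104). In replicate 2 the lin-35 body region (signal 9.37) stood above the region at its start (8.78, rank 7947). The efl-1 gene, at 7086 bp, and lin-35, at 7929 bp, are the longest models of the 9.

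The printed windows differed in base composition, from 28.7% G and C at lin-52, the one without an IDR peak, to 38.0% at lin-54, 42.8% at efl-1, 45.3% at lin-36 and 51.7% at lin-9. The median over the 233 IDR peaks near a protein-coding start was 42.3% (quartiles 38.3 and 48.3), for windows that were not cut at exons. The order of GC content is not that of signal among these genes.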
